A study of Mus musculus with 16 samples.

Results

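The alpha class glutathione S-transferase genes Gsta1, Gsta2, Gsta3 and Gsta4 were followed in the lungs of A/J mice by taking every array probe that carries 1 of these 4 gene names. There were 5 such probes among the 41174 distinct probes of the array, which carry 28100 gene names: 1 for Gsta1 (A_51_P305140), 1 for Gsta2 (A_52_P458682), 2 for Gsta3 (A_51_P503625, here called Gsta3, and A_52_P432124, here called Gsta3 probe 2) and 1 for Gsta4 (A_51_P112223). Each of 16 Agilent arrays with 2 colours carried the lung RNA of 1 female A/J mouse, 4 mice per group. A/J is an inbred strain that develops lung tumours readily. NNK+SECY mice received 1 intraperitoneal injection of NNK, a nitrosamine of tobacco smoke that needs metabolic activation, as 0.2 mL of saline at 10 uM. They were fed selenocystine, the diselenide form of the amino acid selenocysteine, at 15 ppm for 10 days, starting 3 days after the injection. SECY mice had the same 15 ppm diet for 10 days without NNK, NNK mice had the injection and the basal diet, and Untreated mice had the basal diet alone. The lungs of injected mice were taken 13 days after NNK. All 4 groups ate AIN-76, a purified rodent diet that holds 0.35 ppm selenium. On every array the mouse was labelled with Cy5 and a mix in equal parts of the RNA of the 4 Untreated mice with Cy3, with no dye swap, so the log2 ratio of Cy5 over Cy3 compares each lung with the same untreated pool.

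Glutathione S-transferases join the tripeptide glutathione to reactive, electrophilic molecules, which can then be exported from the cell and excreted as mercapturic acids. Enzymes of the alpha class also reduce lipid hydroperoxides with glutathione. In the mouse, Gsta1 and Gsta2 encode closely related subunits known for strong induction by electrophiles and phenolic antioxidants, Gsta3 encodes the subunit known for detoxifying the epoxide of aflatoxin B1, and Gsta4 encodes the subunit specialised for 4-hydroxynonenal, an aldehyde made when lipids are oxidised. Several of these genes are known targets of NRF2, a transcription factor released from its inhibitor KEAP1 by electrophiles, which binds antioxidant response elements. Ligands of the aryl hydrocarbon receptor, which binds xenobiotic response elements, are also known inducers of the Gsta1 and Gsta2 type. In the lung, alpha class transferases are found in the bronchiolar epithelium, club cells included.

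Promoter windows were sought for all 4 genes and are shown for those found. Gsta4 had no entry, so its window cannot be set beside the others. The RefSeq table of mouse build GRCm38.p6 matched 3 of the 4 genes, and each window runs from 250 bases before the transcript start to 50 bases after it. Gsta3 lies on chromosome 1 and the other 3 genes lie together on chromosome 9, in the order Gsta4, Gsta1, Gm3776, Gm10639 and Gsta2. The windows are chr9:78230419-78230718 on the plus strand for Gsta1, chr9:78347096-78347395 on the minus strand for Gsta2 and chr1:21240335-21240634 on the plus strand for Gsta3. Capitals mark matches, searched on both strands, to the core of the antioxidant response element (TGACNNNGC) and to the core of the xenobiotic response element (GCGTG).
Gsta1: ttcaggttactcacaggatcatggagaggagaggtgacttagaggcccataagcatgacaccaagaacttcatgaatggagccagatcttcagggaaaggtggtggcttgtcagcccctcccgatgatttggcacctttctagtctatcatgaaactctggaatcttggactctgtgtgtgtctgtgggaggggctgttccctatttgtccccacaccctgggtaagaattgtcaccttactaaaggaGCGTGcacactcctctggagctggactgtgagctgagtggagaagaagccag
Gsta2: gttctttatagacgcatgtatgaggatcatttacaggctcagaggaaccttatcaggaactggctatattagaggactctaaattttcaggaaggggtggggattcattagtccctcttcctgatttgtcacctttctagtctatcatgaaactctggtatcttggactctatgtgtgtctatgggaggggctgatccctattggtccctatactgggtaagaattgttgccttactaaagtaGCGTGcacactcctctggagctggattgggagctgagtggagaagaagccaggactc
Gsta3: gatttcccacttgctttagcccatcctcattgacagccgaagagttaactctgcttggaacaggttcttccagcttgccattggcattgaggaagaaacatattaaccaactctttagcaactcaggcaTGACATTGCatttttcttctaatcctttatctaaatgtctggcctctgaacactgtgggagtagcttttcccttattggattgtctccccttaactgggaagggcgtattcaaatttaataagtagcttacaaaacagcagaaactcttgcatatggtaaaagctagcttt

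The Gsta3 window held 1 match to the antioxidant response element core, TGACATTGC, whose first base lies 121 bases before the start. A match to this core was present in 12.4% of the 32851 promoter windows of that length in the table. The Gsta1 and Gsta2 windows each held 1 match to the xenobiotic response element core, beginning 2 and 7 bases before the start, and 32.4% of all windows held one. The matches did not overlap each other. The Gsta1 and Gsta2 windows were identical at 238 of 284 aligned bases (83.8%), against 70.3% for Gsta1 and Gsta3 and 74% for Gsta2 and Gsta3. Aligned positions with a gap were left out of these counts, which raises the identity. The identity of unrelated windows was not computed, so these values do not show that the Gsta3 window is related to the others. The motif matches describe the letters of the windows, and no binding was measured here.

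On each of the 16 arrays, all 5 probes gave a Cy5 signal well above background, and none of their spots was saturated or marked as an outlier. The raw Cy5 signal was 8.55 to 31.8 times the local background for Gsta1, 4.53 to 18.5 times for Gsta2, 64.5 to 215 times for Gsta3, 47.6 to 198 times for Gsta3 probe 2 and 6.51 to 17.0 times for Gsta4. The Gsta1 probe and the Gsta2 probe each list the RefSeq transcripts of both genes, so the arrays cannot tell apart RNA of Gsta1 and RNA of Gsta2, and the values below are those of 2 probes for the pair. The Gsta4 probe was spotted 10 times on each array, and the other 4 probes once. Of all probes, 30749 passed the detection filter and were tested, the 5 probes among them. The number of arrays, 4 per group, limits the precision of every comparison.

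The lung identity of the samples and their makeup were checked with marker lists. All 8 club cell, 8 ciliated cell, 8 alveolar type 1 and 8 alveolar type 2 markers were well above background on all 16 arrays. Markers of other tissues were also detected. The mean log2 ratio of 8 adipocyte markers ran from -0.54 to 0.70 on NNK+SECY arrays and -0.22 to 0.51 on SECY arrays. On NNK arrays it ran from -0.39 to 0.005 and on Untreated arrays from -0.25 to 0.10. The 8 skeletal and cardiac muscle markers had -0.38 to 0.46, -0.30 to 0.05, -0.21 to 0.06 and -0.38 to 0.38 in these groups. No gene of either list passed in SECY against Untreated or NNK+SECY against NNK lungs. The array SECY 3 stood apart from its group, with a mean correlation of 0.03 with the other SECY arrays in log2 ratios over all probes, and the counts of alpha class probes called were the same without it. By the headers, same-numbered NNK and Untreated arrays share a slide, as do same-numbered NNK+SECY and SECY arrays, so that the diet comparisons lie between slides and diet and slide set cannot be told apart. The scan day coincided with NNK: NNK+SECY and NNK arrays were scanned on 1 day and SECY and Untreated arrays on the other, so each diet comparison lies within a scan day.

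Selenocystine was followed by higher signal at the Gsta1, Gsta2 and Gsta3 probes, by 1.6 to 2.0 times, in lungs without NNK. The Gsta1 and Gsta2 probes cannot tell these 2 genes apart, and Gsta4 did not pass the test. The comparison asks what the selenium-rich diet did by itself. In limma, 4 of the 5 probes were higher in SECY than in Untreated lungs at an adjusted p below 0.05, and none was lower. Of all 30743 probes with a value in this comparison, 0.195% were called higher and 0.0878% lower, and 1.79% had all SECY arrays above all Untreated arrays. Over all probes, 60 were called higher and 27 lower, and the count in both directions was 60 to 315 when 1 array was left out, the highest without SECY 1. The median log2 difference was 0.87 over the 5 probes and -0.004 over all tested probes.

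Gsta3, by its brighter probe, had log2 ratios of 0.96, 1.08, 0.76 and 1.18 in the SECY lungs. In the Untreated lungs its log2 ratios were -0.12, 0.07, -0.07 and 0.05. Every SECY lung lay above every Untreated lung, and the groups did not overlap. The log2 difference was 1.02 ± 0.08 (SE, n = 4 each; adjusted p = 2.13e-06 in limma), a fold of 2.02 with a 95% interval from 1.80 to 2.27. By size of difference this was rank 7 of the 30743 probes. Gsta3 probe 2 had log2 ratios of 0.70, 0.85, 0.71 and 1.03 in SECY lungs, against -0.02, 0.21, 0.12 and 0.24 in Untreated lungs. These groups did not overlap either, and the difference was smaller, 0.68 ± 0.09 (adjusted p = 0.000617 in limma), a fold of 1.61.

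Gsta1 had log2 ratios of 0.68, 1.11, 0.66 and 0.87 in SECY lungs. In Untreated lungs it had -0.16, 0.04, -0.15 and -0.21. The lowest SECY lung lay well above the highest Untreated lung. The log2 difference was 0.95 ± 0.10 (adjusted p = 6.95e-05 in limma), a fold of 1.93 with a 95% interval from 1.67 to 2.23. The Gsta2 probe had log2 ratios of 0.85, 1.19, 0.79 and 0.93 in SECY lungs, against -0.01, 0.22, -0.07 and 0.12 in Untreated lungs. Its groups did not overlap, and its log2 difference was 0.87 ± 0.11 (adjusted p = 0.00106 in limma), a fold of 1.83. SECY 2 was the highest SECY lung for both of these probes, and SECY 3 the lowest.

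Gsta4, the 4-hydroxynonenal enzyme, had log2 ratios of 0.14, 0.32, -0.01 and 0.20 in SECY lungs. In Untreated lungs they were -0.003, 0.22, -0.11 and 0.10. The groups overlapped over most of their range. The log2 difference was 0.11 ± 0.07 (adjusted p = 0.787 in limma), with a 95% interval from -0.04 to 0.26, so that the upper bound lies below the differences of the other 4 probes.

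**Figure D1:**
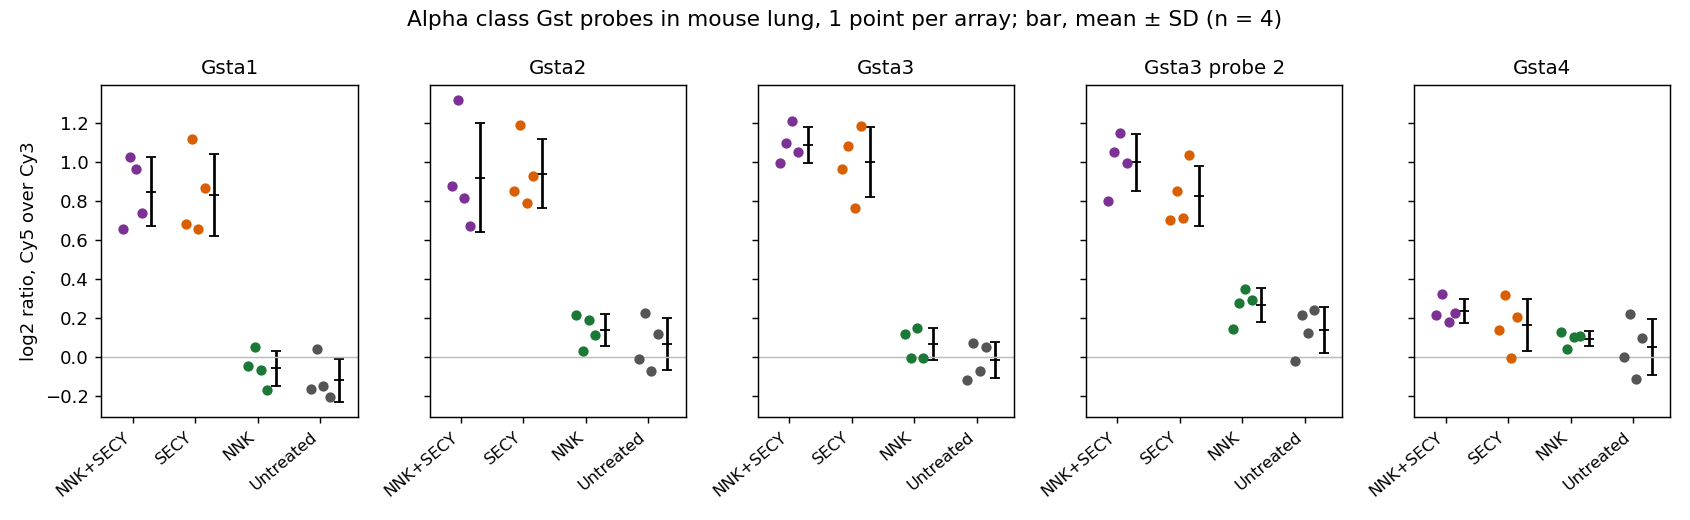
Log2 ratio of Cy5 (mouse) over Cy3 (pool of Untreated RNA) for the 5 alpha class probes, 1 point per array, grouped by treatment; the bar beside each group is its mean ± SD (n = 4). For Gsta1, Gsta2 and both Gsta3 probes all 8 selenocystine-fed lungs lie above all 8 lungs on the basal diet. The share of all probes with this split was not computed. The Gsta4 groups lie between -0.11 and 0.32.

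After NNK, the diet was again followed by higher signal at the Gsta1, Gsta2 and Gsta3 probes, by 1.7 to 2.0 times. NNK+SECY against NNK asks what the diet did in lungs exposed to the carcinogen 13 days before. In limma, the same 4 probes as in SECY against Untreated were called higher in NNK+SECY lungs and none lower, beside 0.289% of all probes called higher and 1.28% called lower. The median log2 difference was 0.78 over the 5 probes and 0.002 over all tested probes. These 8 arrays are not those of the previous comparison, so the pair of comparisons shares no sample, though both share the Cy3 pool and the slide sets.

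Gsta3 had log2 ratios of 0.99, 1.0957, 1.21 and 1.05 in NNK+SECY lungs, against 0.12, -0.008, 0.15 and -0.005 in NNK lungs. The groups were far apart relative to their spread. The log2 difference was 1.02 ± 0.08 (adjusted p = 4.42e-06 in limma), a fold of 2.03 with a 95% interval from 1.81 to 2.28. Gsta3 probe 2 had 0.80, 1.05, 1.15 and 0.99 in NNK+SECY lungs, against 0.14, 0.27, 0.35 and 0.29 in NNK lungs, a log2 difference of 0.73 ± 0.09 (adjusted p = 0.000234 in limma). Both Gsta3 probes thus rose, and their groups did not overlap, as was also true, in the same direction, of 3.52% of all probes.

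Gsta1 had log2 ratios of 0.66, 1.02, 0.96 and 0.74 in NNK+SECY lungs, against -0.05, 0.05, -0.07 and -0.17 in NNK lungs. No NNK+SECY lung came near the NNK lungs. The log2 difference was 0.90 ± 0.10 (adjusted p = 0.000167 in limma), a fold of 1.87. The Gsta2 probe had 0.87, 1.32, 0.81 and 0.67 in NNK+SECY lungs, against 0.21, 0.03, 0.19 and 0.11 in NNK lungs. NNK+SECY 2 stood highest, with a spread among the NNK+SECY lungs of 0.28 (SD) beside 0.08 in NNK lungs. The Gsta2 log2 difference was 0.78 ± 0.11 (adjusted p = 0.00123 in limma), a fold of 1.72.

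Gsta4 had log2 ratios of 0.22, 0.32, 0.18 and 0.23 in NNK+SECY lungs, against 0.13, 0.04, 0.10 and 0.11 in NNK lungs. Here the groups did not overlap, which was also true, in the same direction, of 3.52% of all probes. The log2 difference was 0.14 ± 0.07 (adjusted p = 0.544 in limma), with a 95% interval from -0.01 to 0.29. The fold was 1.104, so Gsta4 did not pass the test after NNK either.

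NNK+SECY against Untreated combines both exposures and shares the Untreated arrays with SECY against Untreated. The same 4 probes were called higher and none lower, beside 0.475% of all probes higher and 0.966% lower. The log2 differences were 0.97 ± 0.10 for Gsta1, 0.85 ± 0.11 for Gsta2, 1.11 ± 0.08 for Gsta3 and 0.86 ± 0.09 for Gsta3 probe 2. Their adjusted p-values in limma were 5.80e-05, 0.00098, 1.06e-06 and 4.38e-05. All 4 probes had every NNK+SECY lung above every Untreated lung, as did 3.14% of all probes. The log2 difference of Gsta4 was 0.19 ± 0.07 (unadjusted p = 0.0193, adjusted p = 0.389 in limma), and its groups overlapped.

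NNK alone was not followed by a detected change in any of the 5 probes 13 days after the injection. In limma, 0 of the 5 were called in NNK against Untreated lungs, beside 0.211% of all probes (65 probes, and 18 to 137 when 1 array was left out, lowest without Untreated 3 and highest without NNK 1), and none had an unadjusted p under 0.05. The log2 differences were 0.06 ± 0.10 for Gsta1, 0.07 ± 0.11 for Gsta2, 0.08 ± 0.08 for Gsta3, 0.12 ± 0.09 for Gsta3 probe 2 and 0.04 ± 0.07 for Gsta4, and the adjusted p of each was 1.00 in limma. NNK and Untreated lungs overlapped for all 5 probes, whereas 2.37% of all probes had the NNK arrays above and 1.51% below the Untreated arrays. The 95% intervals reached at most 0.31, which belonged to Gsta2. For Gsta1, Gsta2 and both Gsta3 probes, a change of the size seen with the diet lies outside the probe's interval, whereas the interval of Gsta4, from -0.11 to 0.19, holds both of its diet differences.

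Within the 4 slides that NNK and Untreated arrays share, Gsta1 was 0.01 to 0.12 higher on the NNK array, and Gsta3 probe 2 was 0.05 to 0.22 higher. The other 3 probes went both ways. Gsta3 differed by 0.24, -0.08, 0.22 and -0.05 on these slides, NNK minus Untreated, and Gsta4 by 0.13, -0.18, 0.21 and 0.01. Even for the probes that went 1 way on all 4 slides, the within-slide differences were small beside those seen with the diet.

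In selenocystine-fed mice, the earlier NNK injection was also not followed by a detected difference. In NNK+SECY against SECY lungs 0 of the 5 probes were called, beside 0.00651% of all probes, and none had an unadjusted p under 0.05 in limma. The log2 differences were 0.02 ± 0.10 for Gsta1, -0.02 ± 0.11 for Gsta2, 0.09 ± 0.08 for Gsta3, 0.17 ± 0.09 for Gsta3 probe 2 and 0.07 ± 0.07 for Gsta4. Within the 4 slides these groups share, Gsta4 was 0.01 to 0.18 higher on the NNK+SECY array, and the other 4 probes went both ways. NNK+SECY and SECY lungs overlapped for all 5 probes, whereas 1.6% of all probes had the NNK+SECY arrays above and 1.38% below the SECY arrays. The interval of the log2 difference of Gsta3 probe 2 ran from -0.01 to 0.35.

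The diet response with NNK minus the diet response without it was tested as an interaction. In limma, 0 of the 5 probes were called, beside 0.00651% of all probes, and none had an unadjusted p under 0.05. The difference between the responses was -0.05 for Gsta1 with a 95% interval from -0.34 to 0.25, and -0.09 for Gsta2 with an interval from -0.44 to 0.25. For Gsta3 it was 0.01, with an interval from -0.23 to 0.24, and for Gsta4 0.03, with an interval from -0.18 to 0.24. Gsta3 probe 2 had 0.05, with an interval from -0.21 to 0.30. Changes of the diet response within these intervals are compatible with the values of 4 arrays per group.

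**Figure D2:**
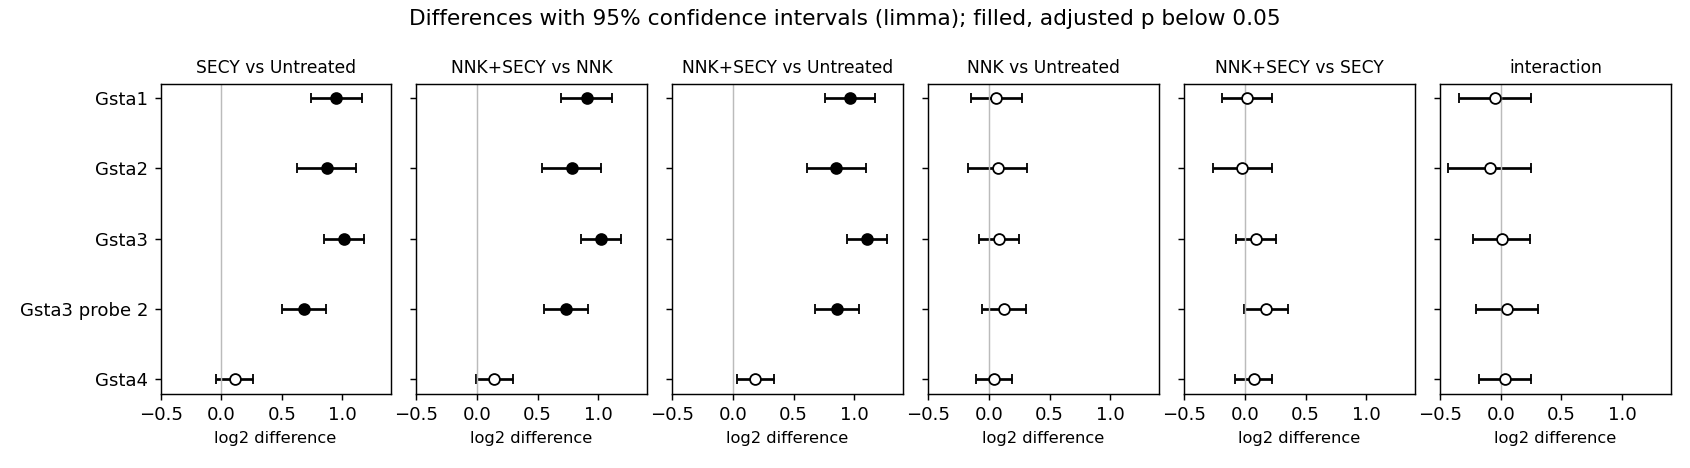
Log2 differences with 95% confidence intervals from limma for the 5 probes (rows) in the 5 comparisons and the interaction (columns); filled points have an adjusted p below 0.05. The 3 comparisons in which the diet differs hold 4 filled points each, between 0.68 and 1.11, and the other 3 panels hold none.

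Ordered by mean log2 ratio, Gsta1, Gsta3, Gsta3 probe 2 and Gsta4 stood highest in NNK+SECY lungs, followed by SECY, NNK and Untreated lungs. Gsta3 averaged 1.09 ± 0.09 in NNK+SECY, 1.00 ± 0.18 in SECY, 0.06 ± 0.08 in NNK and -0.02 ± 0.09 in Untreated lungs (SD, n = 4 each). Gsta2 averaged 0.92 ± 0.28 in NNK+SECY, 0.94 ± 0.18 in SECY, 0.14 ± 0.08 in NNK and 0.07 ± 0.13 in Untreated lungs, so its upper pair stood in the other order. For every probe, the neighbours NNK+SECY and SECY and the neighbours NNK and Untreated overlapped. For Gsta1, Gsta2 and both Gsta3 probes, SECY and NNK lungs did not overlap. The share of all probes for this pair of groups was not computed.

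The Cy5 level of the mice showed the same split. It was taken after loess and Aquantile normalisation, which use both channels, so it is not independent of the pool. On the log2 Cy5 scale Gsta3 averaged 12.7 ± 0.10 in NNK+SECY, 12.7 ± 0.23 in SECY, 11.7 ± 0.09 in NNK and 11.7 ± 0.08 in Untreated lungs (SD, n = 4 each). Gsta1 averaged 9.96 ± 0.20, 9.88 ± 0.23, 8.81 ± 0.22 and 8.80 ± 0.14 in the same order of groups. The Gsta2 probe averaged 8.78 ± 0.46, 8.76 ± 0.30, 7.97 ± 0.06 and 7.81 ± 0.14, Gsta3 probe 2 averaged 12.4 ± 0.23, 12.3 ± 0.14, 11.4 ± 0.12 and 11.2 ± 0.33, and Gsta4 averaged 9.00 ± 0.04, 8.96 ± 0.18, 8.85 ± 0.07 and 8.91 ± 0.17. The 4 group means of Gsta4 thus lay between 8.85 and 9.00, and the other 4 probes split by diet.

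The Cy3 channel holds the same RNA pool on every array, and its differences between groups are given beside those of Cy5. Between SECY and Untreated arrays, the log2 Cy3 level of Gsta3 differed by -0.04 beside a Cy5 difference of 0.98, and that of Gsta1 by 0.13 beside 1.08. For Gsta2 the Cy3 difference was 0.08 beside a Cy5 difference of 0.95. Gsta3 probe 2 was the exception, with a Cy3 difference of 0.37 beside a Cy5 difference of 1.06. Its Cy5 difference was close to that of the other Gsta3 probe, and its Cy3 signal was higher on the SECY arrays. The source of the Cy3 differences was not tested. Between NNK+SECY and NNK arrays the Cy3 difference was 0.22 for Gsta3 probe 2 and 0.25 for Gsta1, and -0.01 for Gsta3. The median Cy3 difference over all probes was -0.03 and -0.02 in these comparisons.

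**Figure D3:**
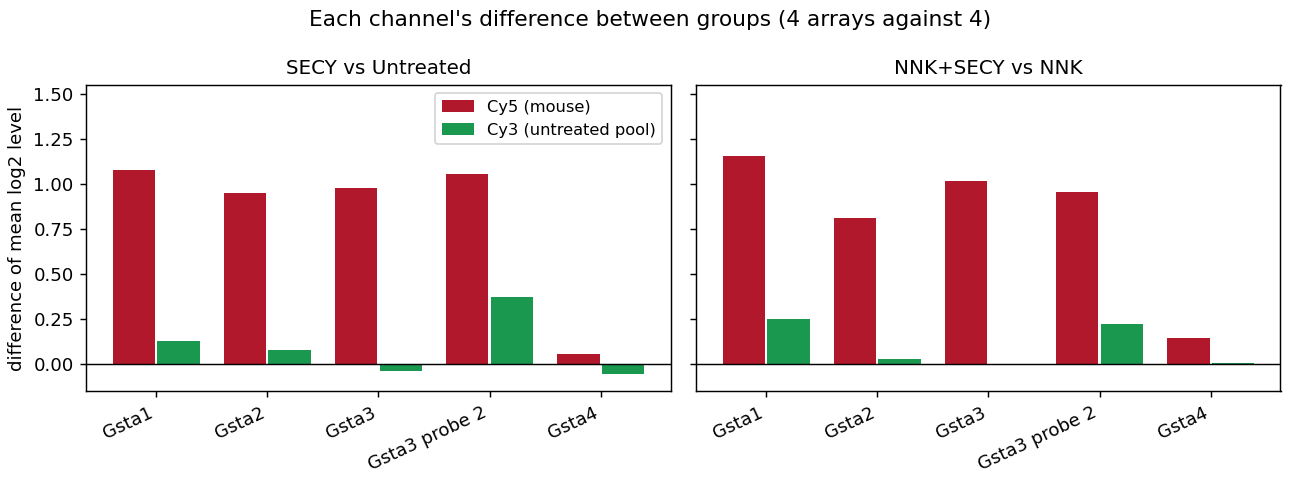
Difference of the mean log2 level between groups in each channel, Cy5 (mouse) and Cy3 (pool of Untreated RNA), for the 5 probes in SECY against Untreated (left) and NNK+SECY against NNK (right). The Cy5 bars of Gsta1, Gsta2 and both Gsta3 probes lie between 0.81 and 1.16, and the Cy3 bars stay at or below 0.37.

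Gsta4 could be read more closely because its probe was spotted 10 times. The SD among the spots of an array was 0.04 to 0.12 on the log2 ratio scale, with a median of 0.08. The SD among mice of a group was 0.10, pooled over the groups, after the 10 spots were averaged. Spot by spot, the SECY minus Untreated difference ran from 0.06 to 0.22 and the NNK+SECY minus NNK difference from 0.08 to 0.22, above 0 at all 10 spots. The NNK minus Untreated difference ran from -0.05 to 0.10. The 10 spots are repeat readings of the same RNA, so they sharpen the value of each lung and add no mice.

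**Figure D4:**
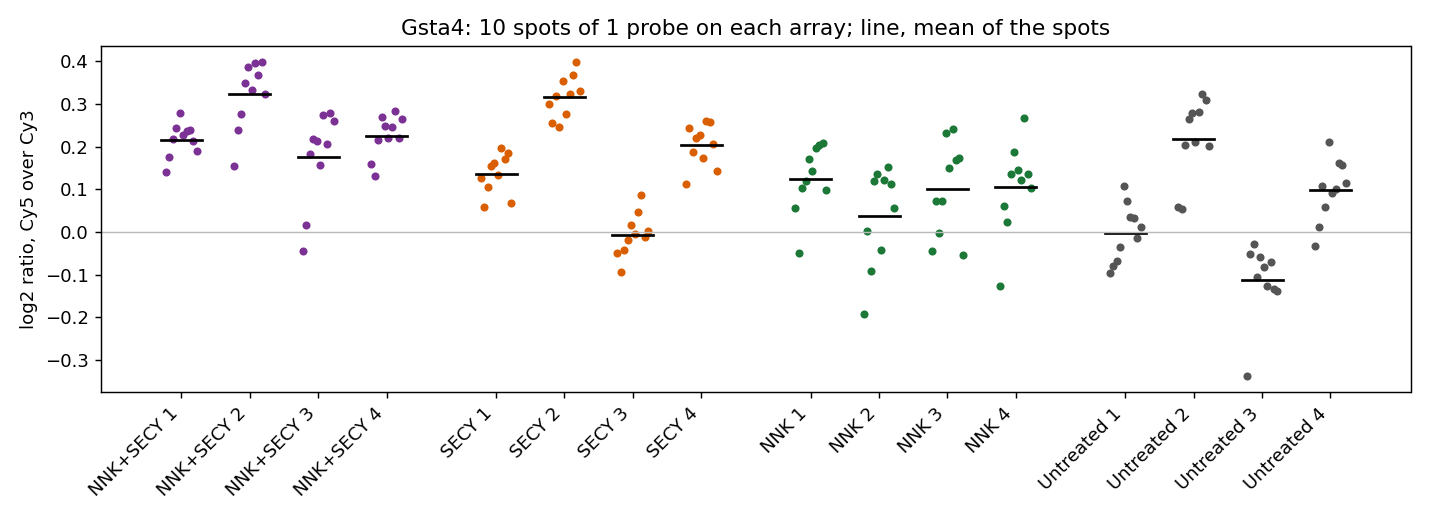
Log2 ratio of the 10 Gsta4 spots on each of the 16 arrays, in group order; the line is the mean of the spots. The SECY arrays are spread widest in relation to their spots, with means from -0.01 to 0.32, and the NNK means lie between 0.04 and 0.13.

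The diet responses of Gsta1, Gsta2 and Gsta3, by the brighter Gsta3 probe, were set against that of Gsta4 within arrays. The Gsta1 and Gsta2 probes each list both genes, so their responses cannot be assigned to either gene alone. In SECY against Untreated lungs, the log2 response of Gsta4 was exceeded by 0.84 ± 0.08 for Gsta1, 0.76 ± 0.04 for Gsta2 and 0.90 ± 0.07 for Gsta3 (SE). In NNK+SECY against NNK lungs it was exceeded by 0.76 ± 0.10, 0.64 ± 0.12 and 0.88 ± 0.07 for these genes. Each of these 6 differences gave an exact two-sided permutation p of 0.0286, the smallest that 70 arrangements can give, and 0.0571 after adjustment over the 12 comparisons made, so none passed. With both diet comparisons together and diet labels exchanged within NNK status, a test chosen after the data were seen, the mean differences were 0.80, 0.70 and 0.89, and each had an exact permutation p of 0.00041 (0.00082 adjusted over 6 gene pairs), again the smallest possible. That test takes the 16 arrays as independent, although they share 8 slides and each slide carries 1 diet. With the 2 arrays of a slide averaged and the diet labels exchanged over the 8 slides, also chosen after the data were seen, each of the 3 differences had an exact permutation p of 0.0286 (0.0571 adjusted), so none passed. Among Gsta1, Gsta2 and Gsta3 the responses differed by -0.24 to 0.12 (exact permutation p from 0.171 to 0.543), and no pair passed; over both comparisons together Gsta2 minus Gsta3 was -0.19 (exact permutation p = 0.0392, 0.0588 adjusted, over arrays; 0.143, 0.214 adjusted, over slides).

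Across the 16 arrays the deviations from the group means describe how the probes vary among lungs of the same treatment. Over these deviations the 2 Gsta3 probes had a correlation of 0.75, and the probes of Gsta1 and Gsta2, which share transcripts, had 0.66. Gsta4 had 0.76 with Gsta2, 0.64 with Gsta3, 0.59 with Gsta1 and 0.36 with Gsta3 probe 2. Gsta1 had 0.58 with Gsta3 and 0.51 with Gsta3 probe 2, and Gsta2 had 0.43 and 0.25 with these probes. All of these values share the array, its slide and its pool, and they are given as descriptions.

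Other genes of the glutathione transferase system were read from lists, which were chosen with earlier results of these data known. None of the alpha class relatives Gsta5, Gsta6, Gsta13, Gm3776 and Gm10639 had a probe under its name. Of the 7 mu class genes tested, 5 were higher in SECY than in Untreated lungs and 0 lower, with a list median of 0.30 on the log2 difference scale; Gstm1 rose by 0.88 ± 0.09 (adjusted p = 5.06e-05 in limma), Gstm3 by 0.64 ± 0.10 and Gstm2 by 0.56 ± 0.09. In NNK+SECY against NNK lungs, 4 of the 7 were higher, with Gstm1 at 1.00 ± 0.09 and Gstm3 at 0.85 ± 0.09. Over all genes tested in these comparisons, 0.221% and 0.306% were called higher. The mu class enzymes conjugate epoxides and other electrophiles and share the glutathione site with the alpha class.

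Of 8 tested transferases of the pi, theta, omega, zeta and kappa classes, 2 were higher in SECY than in Untreated lungs: Gstp1, the pi class enzyme, by 0.86 ± 0.08 and Gsto1, the omega class enzyme, by 0.39 ± 0.07. The same 2 genes were higher in NNK+SECY than in NNK lungs, by 0.93 ± 0.08 and 0.42 ± 0.07. None of the 6 microsomal transferases passed in either comparison. Among the 10 genes that make or recycle glutathione, Gsr, glutathione reductase, rose by 0.45 ± 0.08 in SECY against Untreated lungs, and Gclc, the catalytic subunit of the rate-limiting enzyme of glutathione synthesis, had 0.40 ± 0.09 (adjusted p = 0.0659 in limma), which did not pass. In NNK+SECY against NNK lungs, 4 of these 10 were higher, Gclc by 0.50 ± 0.09 and Gsr by 0.53 ± 0.08 among them, and 1 was lower. That gene was Cbs, cystathionine beta-synthase, at -0.50 ± 0.10, and it is named after its value was seen.

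Of 18 tested genes of the mercapturate route and of conjugate export, 1 was higher in SECY than in Untreated lungs, Abcc1, an exporter of glutathione conjugates, by 0.24 ± 0.05. Of 20 genes of lipid aldehyde disposal, the task also served by Gsta4, 2 were higher: Aldh1a1, an aldehyde dehydrogenase, by 0.73 ± 0.09 and Cbr3, a carbonyl reductase, by 0.59 ± 0.09. Of the 18 regulators of these genes, among them Nfe2l2, Keap1 and Ahr, 0 passed in either diet comparison, and only their RNA was measured. Of 14 other NRF2 target enzymes, 8 were higher in SECY than in Untreated lungs and 0 lower, with a list median of 0.67; Ces1g, a carboxylesterase, rose by 1.48 ± 0.08, Ces1f by 0.92 ± 0.09 and Nqo1, a quinone reductase, by 1.43 ± 0.13. In NNK+SECY against NNK lungs 8 of the 14 were higher too. Over all genes, 0.221% were called higher in SECY against Untreated lungs and 0.306% in NNK+SECY against NNK lungs. The lists were chosen with earlier results of these data known, so their counts are descriptions and no independent support for a pathway. In NNK against Untreated lungs, 0 genes of any of these lists passed.

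The genes whose log2 ratios ran most like each alpha class gene were taken over all 16 arrays from 30071 probes of other genes, by Pearson correlation. For Gsta1 they were Gstp1 (0.95), Srxn1, Nqo1, Zcchc12 and Ces1g, for Gsta2 Nqo1 (0.96), Gpx2, Ces1g, Entpd5 and Zcchc12, and for Gsta3 Ces1f (0.96), Ces1g, Gstp1, Nqo1 and Gbe1. Over deviations from the group means, which leave out the split by diet, the 5 genes named for Gsta1 had 0.08 (Ces1g) to 0.66 (Zcchc12), those for Gsta2 0.56 (Ces1g) to 0.64 (Nqo1), and those for Gsta3 -0.15 (Gstp1) to 0.51 (Gbe1). For Gsta4 they were Cfap45 (0.89), a protein of the ciliary axoneme, Etf1 (0.86), Cxcl17 (0.86), Spata17 (0.85) and Nme5 (0.85). These had 0.78 to 0.89 over deviations from the group means. The genes were picked by correlation over the same arrays, and the group means of Gsta4 differed little. Their values over the deviations therefore largely follow from the choice and give no separate support.

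Markers of other cell types moved with some of these values. Over deviations from the group means, the mean of the 8 ciliated cell markers had a correlation of 0.76 with Gsta4, 0.78 with Gsta2, 0.53 with Gsta1, 0.41 with Gsta3 and 0.16 with Gsta3 probe 2. The mean of the 8 club cell markers had 0.70 with Gsta3 probe 2, 0.65 with Gsta3, 0.56 with Gsta4 and 0.36 with both Gsta1 and Gsta2. The ciliated list ran from 0.02 to 0.28 on NNK+SECY arrays, -0.06 to 0.20 on SECY arrays, 0.08 to 0.19 on NNK arrays and -0.12 to 0.09 on Untreated arrays (mean log2 ratio), so it was not ordered by diet as Gsta1, Gsta2 and Gsta3 were. None of its 8 genes passed in either diet comparison. Of the 8 club cell markers 1 was called higher in both, Aldh1a1, which also stands among the aldehyde genes above; the club cell list ran from -0.10 to 0.07 on NNK+SECY arrays, -0.16 to 0.28 on SECY arrays, -0.21 to -0.04 on NNK arrays and -0.32 to 0.04 on Untreated arrays. Over the deviations, the endothelial list had -0.66 with Gsta2, -0.61 with Gsta4, -0.37 with Gsta3, -0.35 with Gsta1 and 0.04 with Gsta3 probe 2. The alveolar type 2 list had -0.59 with Gsta2, -0.55 with Gsta4, -0.10 with Gsta1, -0.03 with Gsta3 and 0.27 with Gsta3 probe 2. The list of 8 fibroblast and smooth muscle markers had -0.77 with Gsta4, -0.61 with Gsta2, -0.56 with Gsta3, -0.39 with Gsta1 and -0.19 with Gsta3 probe 2. It ran from -0.24 to -0.09 on NNK+SECY arrays, -0.20 to 0.03 on SECY arrays, -0.09 to 0.10 on NNK arrays and -0.15 to 0.01 on Untreated arrays, and none of its genes passed in either diet comparison. The part of these cell types in the alpha class values was not tested. Fewer cells of a type and less RNA per cell cannot be told apart in whole lung RNA.

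Liver is a tissue rich in alpha class transferases, and hepatocyte markers varied among these lungs. Of 7 hepatocyte markers on the array 4 were tested, and Apoa1, Apoc3 and Ttr were well above background on 4, 5 and 3 of the 16 arrays. The mean log2 ratio of the 4 ran from -0.66 to 2.03 on NNK+SECY arrays, -0.61 to 1.45 on SECY arrays, -0.62 to 0.33 on NNK arrays and -0.75 to 0.61 on Untreated arrays. In the diet-fed lungs with the highest list values, NNK+SECY 3 and SECY 4, Gsta3 had log2 ratios of 1.21 and 1.18, the highest of their groups, and in those with the lowest, NNK+SECY 4 and SECY 1, it had 1.05 and 0.96. In Untreated 3, the Untreated lung with the highest list value, Gsta3 had -0.07. Over deviations from the group means, the list had a correlation of 0.68 with Gsta3 probe 2, 0.48 with Gsta3, 0.31 with Gsta1, 0.06 with Gsta2 and -0.19 with Gsta4. Without SECY 4, which held the highest list value of its group, 4 of the 5 probes were called higher in SECY lungs. Without NNK+SECY 3 the count in NNK+SECY against NNK lungs was also 4, with NNK+SECY 2 still in the group. None of the 4 hepatocyte genes passed in either diet comparison. The part of hepatocyte RNA in the alpha class values was not tested.

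**Figure D5:**
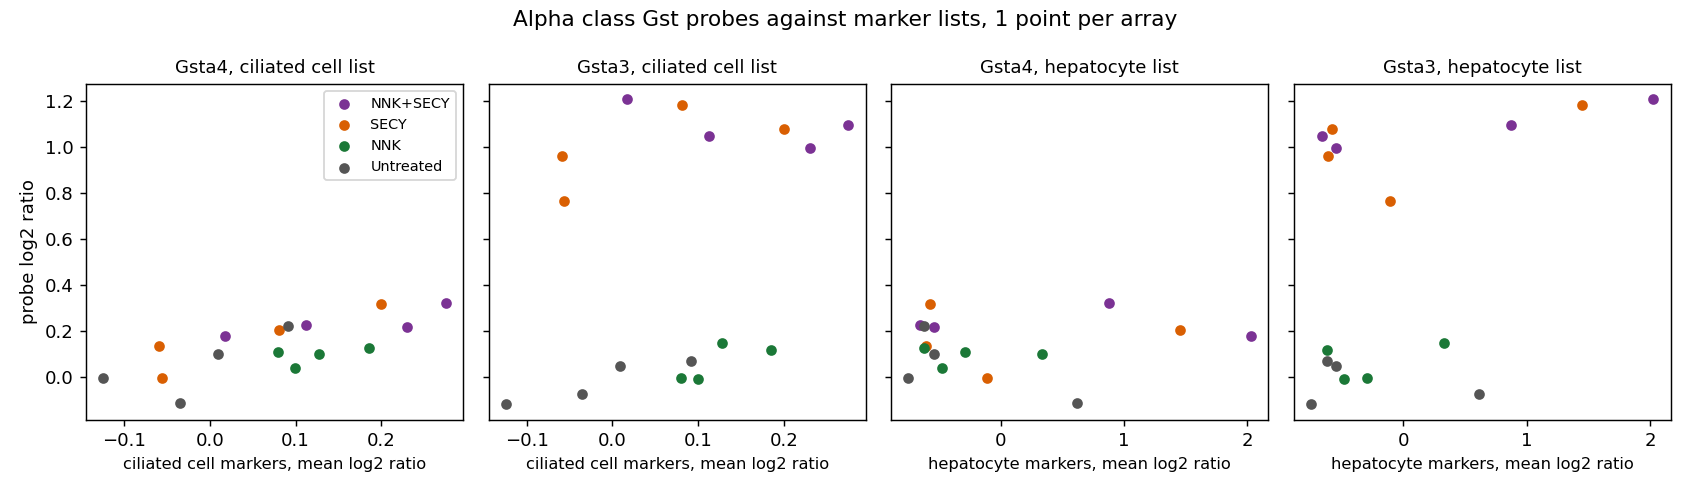
Log2 ratios of Gsta4 and Gsta3 (vertical axes) against the mean log2 ratio of 8 ciliated cell markers and of 4 hepatocyte markers (horizontal axes), 1 point per array, coloured by group. Gsta4 tends to be higher on arrays with a higher ciliated list; the diet-fed arrays of Gsta3 lie above the others, and no array on the basal diet has a hepatocyte list value above 0.61.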

How the data were processed

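Per the file headers, the authors used Feature Extraction 8.1.1.1. The deposited scanner files give the intensity of each spot and of its local background, linear and per colour, and the authors' log10 ratio of Cy5 over Cy3. The authors' deposited table of log2 ratios matches this log10 ratio, converted to log2, to within 0.005, and each column has a median of 0. No genome build is named by the headers or labels.

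From the intensities, limma 3.58.1 in R 4.3.3 corrected the background (normexp, offset 50) and normalised each array by loess, with control and outlier spots at weight 0. Spots of a probe were averaged. A probe was tested if its Cy5 signal was well above background on every array of 1 or more of the groups. All 16 arrays entered 1 fit with a mean per group, and p-values were adjusted by Benjamini-Hochberg over all tested probes (threshold 0.05). Cy5 and Cy3 levels come from loess and Aquantile normalisation, which use both channels, and Cy5 alone is a fit of these Cy5 levels. Every probe of the 4 genes is given. Other genes are read by their probe of highest mean intensity, and up to 3 per list are named, those with the smallest p in SECY against Untreated. The 5 genes most like each member are named. The members and lists were chosen with earlier results of these data known. Alternatives were processed signals, the deposited table, median centring, offset 0, other filters, Cy5 alone, array weights, slide or replicate as a block, only the arrays compared and leaving out each array. The fit was tested on simulated data.

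By the labels the 4 mice of a group are biological replicates. The slide is shared by same-numbered arrays within a slide set, per the headers. Deviations of same-numbered SECY and Untreated arrays had correlations of 0.47, 0.16, 0.49 and -0.09. For NNK and Untreated arrays they were 0.43, 0.17, 0.33 and -0.02. In the other comparisons they ran from -0.13 to 0.30. Since some pairs only were over 0.1, no replicate block entered the main fit, and it was run as an alternative. Whether a slide held 2 arrays or was used in 2 hybridisations is stated by neither labels nor headers.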

Additional observations from a re-analysis of the deposited data

How the results depend on the processing

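In all 5 comparisons and the interaction, the count of probes called was the same under every alternative that was run: 4 in each comparison with a diet difference and 0 in the others, leaving out each array in turn included. With a replicate block, the counts were 4 in SECY against Untreated, NNK+SECY against NNK and NNK+SECY against Untreated and 0 elsewhere, and no call of an alpha class probe changed. Scan day as a term of its own was not run, since it coincides with NNK.

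Leaving out 1 array gave log2 differences in SECY against Untreated of 0.85 to 1.01 for Gsta1, 0.79 to 0.93 for Gsta2, 0.95 to 1.09 for Gsta3, 0.61 to 0.73 for Gsta3 probe 2 and 0.06 to 0.17 for Gsta4. Only values that passed no test changed sign, and the cause was not tested. In NNK against Untreated, Gsta1 had -0.00454 with median centring, and Gsta4 had -0.026 with median centring, -0.059 from Cy5 alone and -0.012 to 0.099 without 1 array. In NNK+SECY against SECY, Gsta1 had -0.000649 from processed signals, -0.0025 with median centring, -0.0021 with offset 0, -0.044 with array weights and -0.043 to 0.111 without 1 array; Gsta2 had 0.019 from Cy5 alone and -0.153 to 0.063 without 1 array. The interaction was 0.0020 with median centring, 0.076 from Cy5 alone and -0.105 to 0.050 without 1 array for Gsta1, -0.042 with array weights and -0.070 to 0.070 without 1 array for Gsta3, -0.103 from Cy5 alone and -0.0019 to 0.118 without 1 array for Gsta3 probe 2, and -0.026 to 0.085 without 1 array for Gsta4.

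The order among Gsta1, Gsta2 and Gsta3 depended on the processing. In SECY against Untreated, the response of Gsta1 minus Gsta2 was -0.000332 with offset 0. Gsta1 minus Gsta3 was 0.025 from processed signals, 0.018 from the authors' deposited table, 0.010 with offset 0 and 0.0995 with the mean of both Gsta3 probes. Gsta2 minus Gsta3 was 0.0054 from processed signals, 0.011 with offset 0 and 0.023 with the mean of both probes. With that mean, Gsta1 minus Gsta3 was 0.026 in NNK+SECY against NNK and 0.063 over both diet comparisons. Without NNK+SECY 2, an exact permutation test put 4 of the differences in NNK+SECY against NNK at an adjusted p of 0.049: Gsta1, Gsta2 and Gsta3 minus Gsta4 at 0.73, 0.53 and 0.91, and Gsta2 minus Gsta3 at -0.37. Over both diet comparisons, Gsta1, Gsta2 and Gsta3 minus Gsta4 passed over arrays and did not pass over slides (exact permutation, adjusted p = 0.0571).

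Counts over all probes moved more. Leaving out 1 array gave 60 to 315 called in SECY against Untreated, 18 to 137 in NNK against Untreated, 233 to 364 in NNK+SECY against Untreated and 363 to 478 in NNK+SECY against NNK. In SECY against Untreated the count was 35 with only the arrays compared, 167 with a replicate block, 296 with array weights and 7217 from Cy5 alone. In NNK against Untreated it was 24 from processed signals and from the authors' deposited table, 27 with offset 0, 39 with median centring, 40 with slide as a block, 106 with array weights and 495 from Cy5 alone. Cy5 alone also gave 4860 in NNK+SECY against Untreated and 2280 in NNK+SECY against NNK.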
